A study of Mus musculus with 12 samples.

Results

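The non-CIN peak lists were used to class the promoters of protein-coding genes by the marks found over them. Neocortex of *Gad67-GFP* heterozygote pups at postnatal day (P)2, pooled from 2–3 litters, was dissociated and sorted. GFP+ cells are cortical interneurons (CINs) and the GFP- cells are the non-CINs. Native ChIP, in which chromatin is digested without crosslinking, was performed for H3K27ac and for H3K27me3 in 2 replicates of each population, with 1 input (chromatin with no antibody) for each replicate. In these pups GFP is driven from the *Gad67* (*Gad1*) locus, so both populations carry the reporter allele and differ in GFP, not in genotype. The non-CINs are whatever cells were left without GFP, which the authors describe as enriched for glutamatergic projection neurons (PNs) and glia. Each list is an average over that mixture. A mark carried by a few cells and a weak mark carried by many cannot be told apart in such a list.

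Lysine 27 of histone H3 can carry an acetyl or a methyl group, but not both on the same tail. H3K27ac is deposited by the acetyltransferases p300 and CBP at active promoters and enhancers. H3K27me3 is deposited by Polycomb repressive complex 2 (PRC2) and bound by the CBX proteins of Polycomb repressive complex 1 (PRC1), and it covers developmental genes that are kept silent in a lineage. In the developing cortex it is known for holding regulators of other lineages silent while neurons and glia mature.

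Each of 41438 transcription start sites (TSSs) of 21851 protein-coding genes (GENCODE vM21, mm10) was given a window from 1 kb upstream to 100 bp downstream. A mark was present when both of its replicate lists had a peak over at least 1 bp of that window. This used 4 of the 8 ChIP lists of the series. The 4 non-CIN lists held between 42575 and 59667 peaks over 39.4 to 50.4 Mb. They are calls and not coverage, so a promoter without a peak is one where none was called, and signal below the threshold is not seen.

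In non-CINs 19294 TSSs carried H3K27ac only (46.6% of all TSSs) and 3419 carried H3K27me3 only (8.25%). Both marks lay over 441 TSSs (1.06%) and neither over 18284 (44.1%). Judged by gene, where a gene was placed in a class if all of its TSSs were in it, 8533 genes were H3K27ac only (39.1% of genes), 1697 H3K27me3 only (7.77%), 151 both (0.691%) and 9340 neither (42.7%). The other 2130 genes (9.75%) had TSSs in more than 1 class. These shares are the background against which the gene lists are read.

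The classes differed in how well the replicates repeated them. H3K27ac only was found at 20817 TSSs by replicate 1 alone and at 19108 by replicate 2 alone, of which 18584 were the same. H3K27me3 only was found at 3255 and 4204 TSSs, with 2967 the same, and neither at 16204 and 17175, with 15282 the same. The class both was much larger in a single replicate, with 1162 TSSs in replicate 1 and 951 in replicate 2. The 441 TSSs found by both replicates were 38.0% of the first and 46.4% of the second, whereas for H3K27ac only these shares were 89.3% and 97.3%. At a minority of TSSs the absence of a mark rested on 1 replicate. Of the H3K27me3-only TSSs 13.2% had an H3K27ac peak in 1 replicate, and of the H3K27ac-only TSSs 3.68% had an H3K27me3 peak in 1 replicate.

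**Figure D1:**
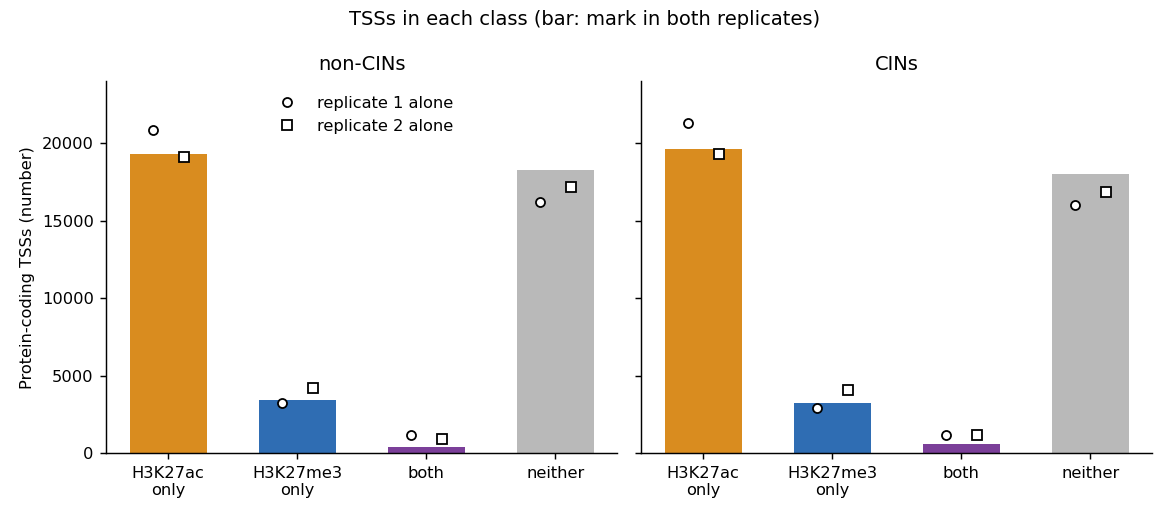
TSSs (number, vertical axis) in each of the 4 classes for non-CINs and CINs. Bars count TSSs classed on marks present in both replicates, and the circle and square give the counts of each replicate alone. The class both is 441 TSSs in non-CINs but 1162 and 951 in the single replicates.

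The marks seldom met. H3K27ac lay over 47.6% of all TSSs, but over 11.4% of the TSSs with H3K27me3. In the single replicates these shares were 53.0% and 26.3% (replicate 1) and 48.4% and 18.4% (replicate 2). H3K27ac was therefore less frequent at H3K27me3 promoters than at promoters as a whole in each replicate, and the size of the gap differed between them.

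The promoters of *Sox2*, *Sim1*, *Olig2* and *C1qa* show the sequences behind the classes. Each is the 200 bases upstream of the 5′-most TSS, read 5′ to 3′ from the mm10 assembly (GRCm38.p6), with every CpG in capitals. They come from lists of cell type markers and lineage regulators, where the first 3 were among the highest by peak rank in their class and *C1qa*, which has no peak, was the first printed of the microglia genes in alphabetical order. *Sox2*, a transcription factor of neural stem cells and glia, is H3K27ac only, *Sim1*, a regulator of the hypothalamus, is H3K27me3 only, *Olig2*, a regulator of the oligodendrocyte lineage, carries both marks, and *C1qa*, a complement gene of microglia, carries neither.
Sox2, chr3:34650205-34650404, plus strand: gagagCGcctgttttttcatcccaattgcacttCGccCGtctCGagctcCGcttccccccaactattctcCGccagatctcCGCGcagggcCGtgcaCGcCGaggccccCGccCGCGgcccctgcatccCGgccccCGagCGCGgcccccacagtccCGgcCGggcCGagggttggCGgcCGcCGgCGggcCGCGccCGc
Sim1, chr10:50894554-50894753, plus strand: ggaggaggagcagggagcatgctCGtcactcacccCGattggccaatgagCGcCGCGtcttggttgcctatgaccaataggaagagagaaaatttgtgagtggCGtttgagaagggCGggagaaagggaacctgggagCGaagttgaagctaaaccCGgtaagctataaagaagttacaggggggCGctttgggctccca
Olig2, chr16:91225257-91225456, plus strand: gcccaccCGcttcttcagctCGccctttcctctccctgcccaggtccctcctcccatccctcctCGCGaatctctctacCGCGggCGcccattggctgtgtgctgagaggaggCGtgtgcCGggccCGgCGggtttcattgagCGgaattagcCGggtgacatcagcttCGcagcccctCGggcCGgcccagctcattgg
C1qa, chr4:136898804-136899003, minus strand: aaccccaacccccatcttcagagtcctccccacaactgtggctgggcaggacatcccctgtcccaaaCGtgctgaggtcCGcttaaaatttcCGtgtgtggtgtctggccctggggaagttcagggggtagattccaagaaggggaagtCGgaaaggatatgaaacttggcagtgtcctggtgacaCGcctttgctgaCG
The *Sox2* stretch held 28 CpGs, that of *Sim1* 10, that of *Olig2* 16 and that of *C1qa* 6. Over the whole window the numbers were 92, 65, 52 and 19.

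Over all promoters CpG content also differed between the classes, and it was not used to make them. CpG dinucleotides are depleted in most of the mammalian genome and kept in CpG islands, where Polycomb and the general transcription machinery are both known to bind. The ratio of observed to expected CpGs in the window had a median of 0.626 (quartiles 0.482–0.754) for H3K27ac only, 0.512 (0.359–0.651) for H3K27me3 only, 0.617 (0.513–0.748) for both and 0.194 (0.121–0.309) for neither, against 0.434 (0.202–0.655) over all TSSs. The classes with a mark overlapped widely, and neither stood apart with an upper quartile below the lower quartile of the other classes. From the classes of replicate 1 alone the medians were 0.614, 0.488, 0.619 and 0.179, and from those of replicate 2 alone 0.624, 0.489, 0.611 and 0.188, so H3K27ac only and both changed places between the replicates and the other classes did not.

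High-CpG promoters, with a 500 bp stretch over 0.75 observed/expected and over 55% GC, made up 30.7% of all TSSs. They were 53.1% of H3K27ac-only, 48.3% of both, 32.8% of H3K27me3-only and 6.20% of neither TSSs. Read from 500 bp on either side of the TSS instead, these shares were 76.0%, 71.9%, 54.7% and 11.6%, higher in each class and in the same order. Read the other way, 80.6% of the 12708 high-CpG promoters were H3K27ac only, 8.82% H3K27me3 only, 1.68% both and 8.92% neither. Of the 11820 promoters of intermediate CpG content, 60.3% were H3K27ac only and 12.9% H3K27me3 only. Among the 16910 low-CpG promoters, with no stretch over 0.48, 83.8% carried neither mark. The share of H3K27me3 only was thus highest at intermediate CpG content, above its 8.25% over all TSSs, and lowest at low CpG content, at 4.60%. Median GC content was 52.8% for H3K27ac only, 54.1% for H3K27me3 only, 54.6% for both and 45.4% for neither.

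**Figure D2:**
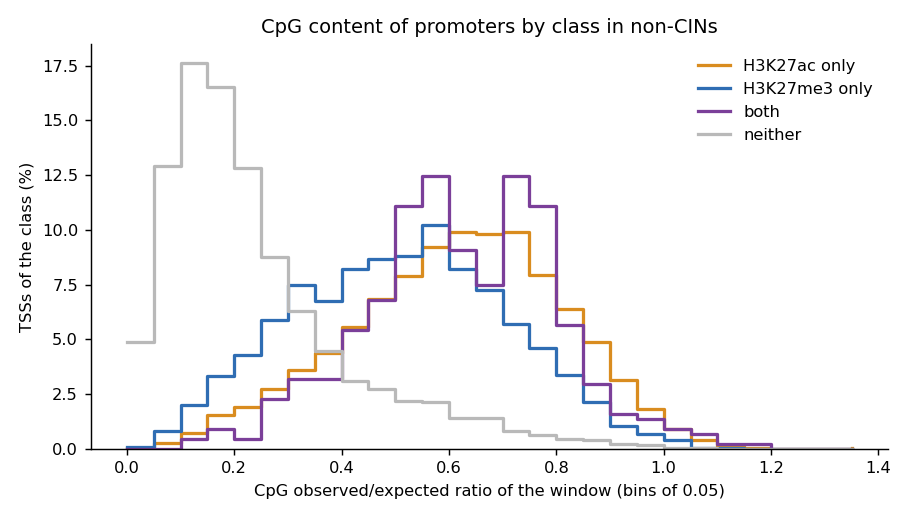
CpG observed/expected ratio of the promoter window (horizontal axis, no unit) against the percent of TSSs of each class in bins of 0.05. The neither class lies to the left, with a median of 0.194, and the H3K27me3-only curve (0.512) lies left of the H3K27ac-only curve (0.626).

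The marks also differed in their reach. H3K27ac peaks over H3K27ac-only TSSs, merged across gaps of up to 500 bp, had a median length of 1636 bp in replicate 1 (quartiles 1194–2247) and 1515 bp in replicate 2 (1026–2132). H3K27me3 peaks over H3K27me3-only TSSs were 3384 bp (1621–6352) and 3923 bp (2110–7313) long. At 5 kb or more were 33.4% and 40.1% of the latter but 2.75% and 2.80% of the former. H3K27me3 filled the whole window at 39.5% and 37.7% of its TSSs, whereas H3K27ac did so at 17.1% and 14.2%. H3K27ac was most frequent just downstream of the TSS, with 93.9% and 87.7% of H3K27ac-only TSSs covered in the bin centred 150 bp downstream, and was down to 6.34% and 5.93% in the bin that ends 3 kb downstream. H3K27me3 still covered 37.7% and 47.2% of its TSSs at that distance.

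At TSSs with both marks the peaks were placed differently around the TSS. H3K27me3 was most frequent 1050 bp upstream, with 67.1% of the 441 TSSs covered in replicate 1 and 78.5% in replicate 2, and it dropped to 26.5% and 21.8% in the bin just upstream of the TSS. H3K27ac was most frequent 150 bp downstream, at 82.3% and 75.3%. The peaks of the marks shared at least 1 bp within the window at 263 TSSs in replicate 1 (59.6%) and at 183 in replicate 2 (41.5%), and at 150 in both (34.0%). The median H3K27ac peak covered 492 bp of the window in replicate 1 and 353 bp in replicate 2, and the median H3K27me3 peak 404 and 470 bp. In the 2 kb downstream of the window, both replicates had H3K27ac at 81.0% of these TSSs and H3K27me3 at 49.4%. In the 2 kb upstream of the window the order was turned, with H3K27ac at 20.0% and H3K27me3 at 80.3%. Since a window that reaches 1 kb upstream picks up H3K27me3 ending there, part of this arrangement is set by the definition.

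**Figure D3:**
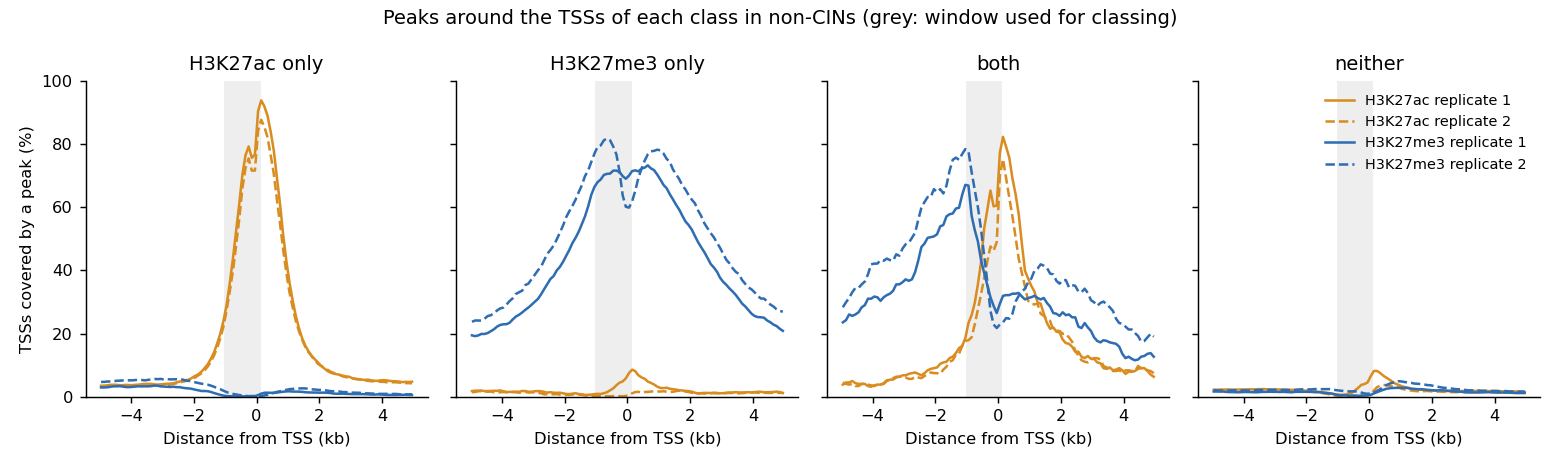
Percent of the TSSs of each class covered by a non-CIN peak (vertical axis) by distance from the TSS in kb (100 bp bins, downstream positive), for each mark and replicate. At TSSs with both marks H3K27me3 is highest about 1 kb upstream (67.1% and 78.5%) and H3K27ac just downstream of the TSS (82.3% and 75.3%).

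Within the H3K27ac-only class the genes were ranked by their peaks. Peak strength is given here as a percentile, the share of peaks of the same list with the same or a lower fold enrichment over input. The 10 genes ranked highest by the lower of their 2 replicates were *Klf6*, a zinc finger transcription factor, *Mepce* and *Zcwpw1*, *Ptp4a1* (listed under 2 gene identifiers), *Arrdc3*, *Hnrnpa3*, *Brca1*, *Sp1* and *Usp38*. All lay at or above percentile 99.8 in both lists. *Mepce* and *Zcwpw1* start on opposite strands of chromosome 5, at positions 137786663 and 137787798, and share 1 peak, at percentile 99.99 in replicate 1 and 99.98 in replicate 2. Closely spaced divergent starts were frequent in this class. Another protein-coding TSS on the opposite strand lay within 1 kb upstream of 17.6% of the TSSs of its genes, against 1.42% for H3K27me3-only genes, 1.24% for neither and 8.28% for all genes. Windows of a divergent pair overlap, so the members of a pair tend to be classed alike.

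Housekeeping lists were nearly all H3K27ac only. This was so for 72 of 78 ribosomal protein genes, 35 of 39 proteasome subunit genes and 35 of 37 subunit genes of mitochondrial complex I, against 39.1% of all genes, and replicate 1 alone gave 72, 34 and 35 and replicate 2 alone 73, 35 and 35. *Psmb8* was the proteasome gene with H3K27me3 only, at percentiles 96.5 and 95.1. It encodes a subunit of the immunoproteasome, which is made on interferon signalling. Of 25 cell cycle genes 21 were H3K27ac only, with *Mcm4*, a helicase subunit of DNA replication, at percentiles 97.96 and 96.8, and the other 4 were neither. Cyclin-dependent kinase inhibitors, which stop the cycle, were split. *Cdkn1b* and *Cdkn2c* were H3K27ac only, with *Cdkn1b* at 87.7 and 94.8, and *Cdkn2a*, *Cdkn2b* and *Cdkn1c* were H3K27me3 only, with *Cdkn2a* at 99.9 in both replicates. Replication-dependent histone genes were H3K27ac only in 51 of 66 cases. These are near-identical copies, so the assignment of reads among them is uncertain.

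Genes of astrocytes and radial glia were the cell type list most often H3K27ac only, at 20 of 25. Replicate 1 alone gave 18 and replicate 2 alone 21, and none was H3K27me3 only in either. *Sox9*, a glial fate regulator, was at percentile 95.6 in replicate 1 and 97.3 in replicate 2. *Fabp7*, a fatty acid binding protein of radial glia, was at 95.3 and 97.0, and *Aldh1l1*, a folate enzyme of astrocytes, at 95.6 and 74.2. *Sox2*, at 99.5 and 99.6, also had an H3K27me3 peak in replicate 1, at percentile 79.8. Of the others, *Aqp4*, *Slc1a2* and *Tnc* had a further TSS with neither mark, *Hopx* had TSSs with H3K27me3 only and with both, and *S100b* was neither, with an H3K27ac peak in replicate 1. In CINs 19 genes of the list were H3K27ac only.

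Genes of PNs, for which the authors describe the non-CINs as enriched, were spread over the classes. Of 27 regulators of the cortical glutamatergic lineage 7 were H3K27ac only, 8 H3K27me3 only and 2 both, with 9 in more than 1 class. *Pou3f2* and *Pou3f3*, POU factors of upper layer neurons, had H3K27ac at percentiles 98.8 and 99.6 and at 99.3 and 99.9, with H3K27me3 over *Pou3f3* in replicate 1 alone (94.5). *Tle4*, a corepressor of deep layer neurons, had H3K27ac at 97.7 and 94.8. *Emx2*, a patterning gene of the dorsal telencephalon, had H3K27ac at 89.3 and 78.6, with H3K27me3 in replicate 2 (89.2) and none in replicate 1. The 8 genes with H3K27me3 only were *Bcl11b*, *Bhlhe22*, *Eomes*, *Neurod1*, *Neurod2*, *Neurog1*, *Neurog2* and *Tbr1*, most of them proneural or T-box factors of PNs and their progenitors. *Tbr1*, which specifies layer VI neurons, was at H3K27me3 percentiles 99.3 and 99.6. *Neurod2* was at 99.2 and 98.7 and *Eomes*, a marker of intermediate progenitors, at 98.4 and 99.2.

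H3K27ac was looked for beyond the window of 3 of these genes, chosen after their classes were seen. The nearest H3K27ac peak of replicate 1 lay 8773 bp from a TSS of *Neurod2*, 5586 bp from *Tbr1* and 27575 bp from *Eomes*, and that of replicate 2 lay 9586, 83 and 1191 bp away. The *Tbr1* peak of replicate 2 lay within the window, at percentile 1.65, and replicate 1 had none there. *Neurod2* and *Eomes* had no H3K27ac peak over a promoter in any of the 4 H3K27ac lists of either population. The vesicular glutamate transporter genes *Slc17a7* and *Slc17a6* were also H3K27me3 only, at 99.1 and 97.3 and at 99.7 and 99.4. Of 16 genes of glutamatergic neurons 4 were H3K27me3 only, 2 H3K27ac only (*Gria2* and *Gria3*, AMPA receptor subunits) and 4 neither, with 6 in more than 1 class. At least 1 TSS had H3K27ac in 7 of the 16 and H3K27me3 in 5. Replicate 1 alone gave 4 genes with H3K27me3 only, 3 with H3K27ac only and 1 with neither, and replicate 2 alone gave 5, 2 and 2.

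Pan-neuronal genes were also spread over the classes. Of 20, 6 were H3K27me3 only (*Elavl3*, *Nefl*, *Nefm*, *Snap25*, *Stmn2* and *Syt1*), 2 H3K27ac only (*Map2* and *Vamp2*), 1 both (*Tubb3*) and 4 neither, with 7 in more than 1 class. Replicate 1 alone gave 6 with H3K27me3 only, 4 with H3K27ac only, 1 both and 2 neither, and replicate 2 alone gave 5, 3, 3 and 3. *Snap25*, a protein of synaptic vesicle fusion, had an H3K27ac peak in replicate 2 alone, at percentile 23.7. *Map2*, a dendritic microtubule protein, had H3K27ac at percentiles 96.1 and 96.4. *Nefl*, the neurofilament light chain, had H3K27me3 at 98.7 and 97.8 and no H3K27ac peak within 200 kb of its TSS in either replicate. *Syt1*, the calcium sensor of synaptic vesicle release, had H3K27me3 at 92.0 and 96.5. The label of the cells as non-CINs says only that they lack GFP. The classes of the glial and glutamatergic lists were close to those in CINs, where 19 of the 25 astrocyte and radial glia genes and 8 of the 27 glutamatergic lineage regulators were H3K27ac only, against 20 and 7 in non-CINs, and 8 of the regulators were H3K27me3 only in either population. In non-CINs at least 1 TSS had H3K27ac in 24 of the 25 and 17 of the 27 genes, and H3K27me3 in 1 and 15.

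Markers of the GABAergic cells that the sort removed were mainly H3K27me3 only. This held for 13 of 24 GABAergic lineage regulators and for 11 of 20 genes of GABAergic neurons, against 7.77% of all genes. Replicate 1 alone gave 13 and 12 and replicate 2 alone 12 and 11. In CINs 8 of the 24 and 9 of the 20 were H3K27me3 only as well, and 5 and 3 had both marks. *Dlx1* and *Dlx2*, homeobox genes of the ganglionic eminences, shared a domain of H3K27me3 at percentile 99.8 in replicate 1 and 99.7 in replicate 2. *Gad1* and *Gad2*, the GABA-synthesising enzymes, were at 99.1 and 98.9 and at 99.3 and 99.2. *Gad2* also had an H3K27ac peak in replicate 2, at percentile 28.9, and none in replicate 1. *Lhx6* and *Nkx2-1*, regulators of the medial ganglionic eminence, were above 99.5 in both replicates, and the neuropeptide genes *Sst* and *Npy* were at 82.9 and 91.6 and at 99.2 and 98.1. *Maf*, *Meis2* and *Pbx3* were among the 5 lineage regulators with H3K27ac only, and *Meis2* also had an H3K27me3 peak in replicate 2.

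The oligodendrocyte list held 4 of its 18 genes in the class both, against 0.691% of all genes. These were *Olig1*, *Olig2*, *Sox10* and *Nkx2-2*, transcription factors of the lineage. Of the others, *Sox8*, *Cnp*, *Cspg4* and *Gpr17* were H3K27ac only, *Nkx6-2* was H3K27me3 only, *Pdgfra* was in more than 1 class and 8 were neither, which was 5 genes in replicate 1 alone and 8 in replicate 2 alone. *Olig2* had H3K27ac at percentiles 89.2 and 92.0 and H3K27me3 at 91.0 and 91.2. *Olig1* had H3K27ac at 63.0 and 84.4 and H3K27me3 at 72.9 and 80.2. *Nkx2-2* had H3K27ac at 84.8 and 78.6 and H3K27me3 at 96.9 and 97.5. *Sox10* was the weakest for H3K27ac, at 5.42 and 42.0, and had H3K27me3 at 94.9 and 84.1. All 4 genes had both marks in each of the 4 lists and in the 4 CIN lists as well. The myelin genes *Mag*, *Mbp*, *Mobp* and *Mog*, which are switched on later, were neither, although *Mbp* had H3K27ac in replicate 1 alone.

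**Figure D4:**
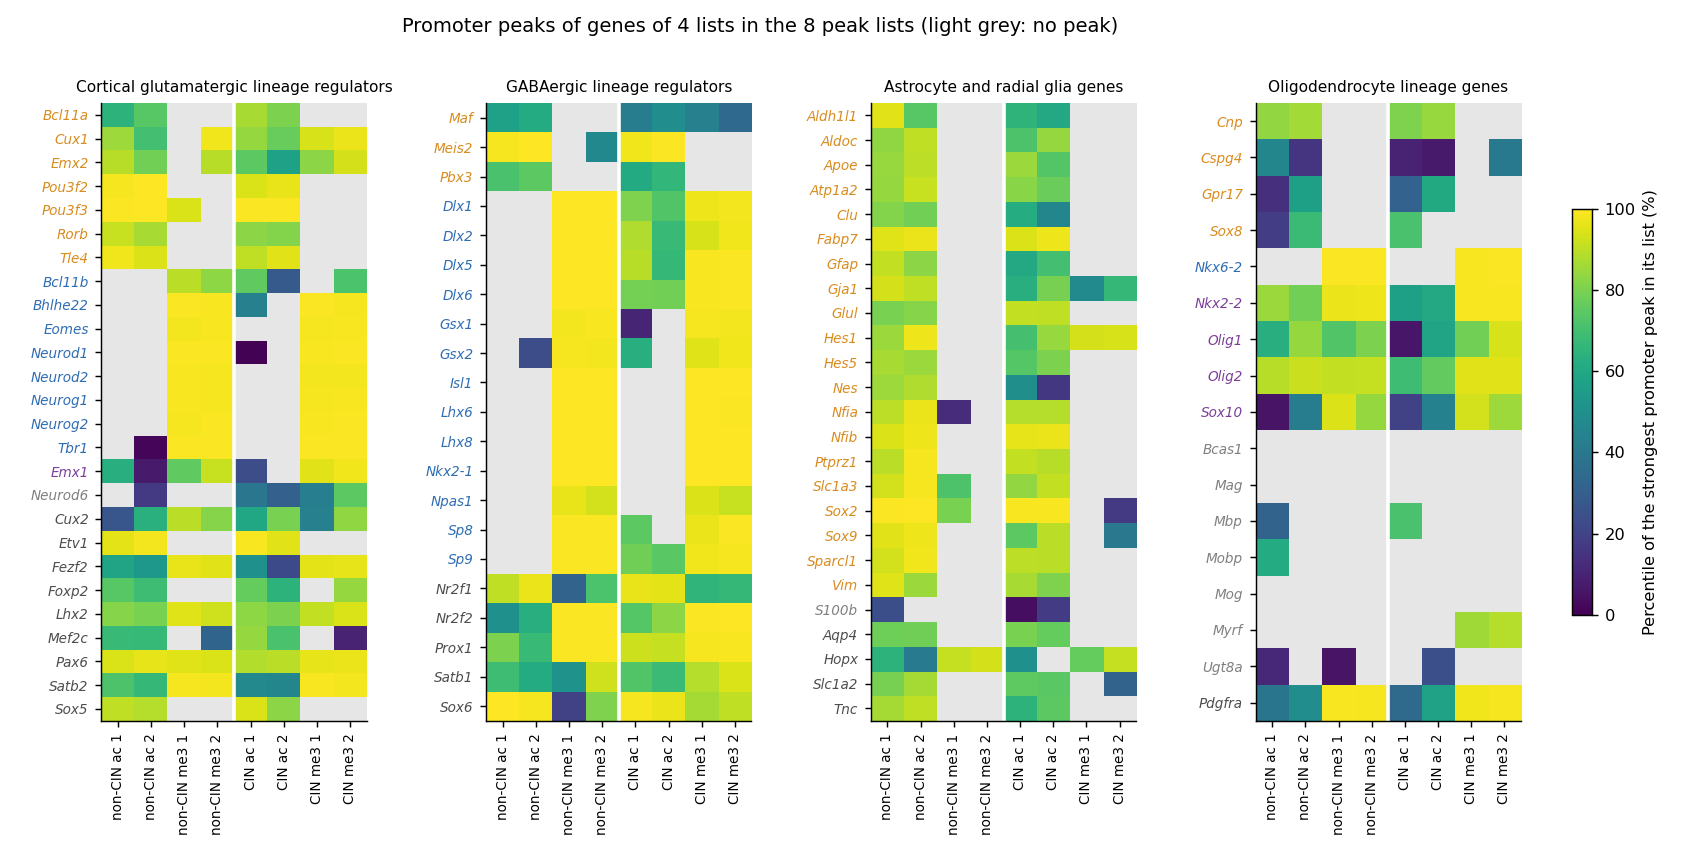
Percentile of the strongest promoter peak within its own list (colour, %) for genes of 4 lists in the 4 non-CIN and 4 CIN lists, with light grey for no peak. Gene names are coloured by their class in non-CINs (orange H3K27ac only, blue H3K27me3 only, purple both, light grey neither, dark grey more than 1 class). *Dlx1* and *Dlx2* have H3K27me3 in all non-CIN lists and no H3K27ac there, and *Olig2* has all 4 peaks.

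Microglia and vascular cells are the remaining types that GFP- cells could hold. Of 18 microglia genes 15 were neither, 1 H3K27ac only (*Tyrobp*, at percentiles 4.91 and 42.5) and 1 H3K27me3 only (*Irf8*). The macrophage receptor genes *Cx3cr1* and *Csf1r* and the microglial surface protein genes *Tmem119* and *Trem2* had no promoter peak in any of the 4 lists. Of 18 endothelial and pericyte genes 9 were H3K27me3 only, 7 neither and 2 H3K27ac only (*Pdgfrb* and *Vtn*). The vascular regulators *Sox17*, *Foxc1* and *Foxf2* had H3K27me3 above percentile 99 in both replicates, whereas the adhesion genes *Cdh5* and *Pecam1* were neither. The share of each cell type in the sorted material was not measured in these data.

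The H3K27me3-only class was led by the Hox clusters, which set position along the body axis behind the forebrain. All 39 Hox genes were H3K27me3 only, in both replicates and in each alone. The 10 highest ranked genes of the class were *Hoxa13*, *Hoxa10*, *Hoxa11*, *Hoxa3*, *Hoxa4*, *Hoxa5*, *Hoxa6*, *Hoxa7*, *Hoxa9* and the overlapping gene model *Gm28308*, all in 1 cluster on chromosome 6. *Hoxa13* was at percentile 99.99 in both lists. The merged peak over *Hoxa10* was 135855 bp long in replicate 1 and 68359 bp in replicate 2. Among the long runs of neighbouring genes in this class were 11 genes from *Hoxb13* to *Skap1* (chr11:96194316-96759130) and 10 from *Evx2* to *Hoxd1* (chr2:74652991-74765142). Over the class, 19.2% of genes were followed along the chromosome by another of the same class, against a share of 7.77% in all genes. For H3K27ac only this was 53.0% against 39.1%, and for neither 62.9% against 42.7%.

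Regulators of tissues other than cortex had the same mark. Of 76 such genes 69 were H3K27me3 only and none was H3K27ac only, and single replicates gave 68 and 70. *Hand2*, *Sim1* and *Tbx20* were at percentile 99.9 or above in both replicates. They are known from heart and limb, hypothalamus, and heart. *Prrx1*, a mesenchymal homeobox gene, was the 1 with both marks, and *Gata1*, *Hnf4a*, *Myf5* and *Myog* were neither. Transcription factor families differed. H3K27me3 only was found at 12 of 16 T-box, 10 of 12 LIM homeobox, 7 of 9 PAX and 11 of 12 sine oculis and Iroquois homeobox genes. Of 15 POU genes 5 were H3K27me3 only, 4 H3K27ac only and 4 neither, and of 17 Krueppel-like factor genes 10 were H3K27ac only and 2 H3K27me3 only. In the SOX family 7 of 19 were H3K27ac only, 5 H3K27me3 only and 3 both (*Sox1*, *Sox10* and *Sox21*). The forkhead family had 8 of 44 H3K27ac only, among them *Foxo3* at 96.5 and 98.6, and 21 H3K27me3 only, among them *Foxa1* at 99.9 in both. Members of a family can overlap with the list of regulators, and T-box, PAX and forkhead genes were counted in each list they belong to.

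Signalling genes were spread over the classes. Of 51 secreted WNT, BMP and FGF ligand genes 30 were H3K27me3 only, 11 neither and 3 H3K27ac only (*Bmp7*, *Fgf12* and *Wnt7a*), with 7 in more than 1 class. *Fgf8*, a ligand of the anterior patterning centre, was at H3K27me3 percentiles 99.5 and 99.4. In the hedgehog pathway the ligands *Shh*, *Ihh* and *Dhh* were H3K27me3 only, each between 98.1 and 98.9. The receptor *Ptch1* (H3K27ac at 89.97 and 88.9), the transducer *Smo* (86.7 and 84.1), *Sufu* (96.2 and 86.2) and the factors *Gli2* and *Gli3* were H3K27ac only, 9 genes of 14 in all, and the target gene *Gli1* was neither. In the Notch pathway 14 of 23 genes were H3K27ac only, and *Hey2*, a Notch target, had both marks. Among 40 genes of voltage-gated potassium channels 18 were H3K27me3 only and 3 H3K27ac only. Of 19 GABA-A receptor subunit genes 11 were neither and 4 H3K27me3 only. Among 20 immediate early and activity genes 13 were H3K27ac only, with *Jun* at 98.7 and 98.6. Of these activity genes *Egr3*, *Egr4* and *Npas4* were H3K27me3 only and *Egr2* both.

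**Figure D5:**
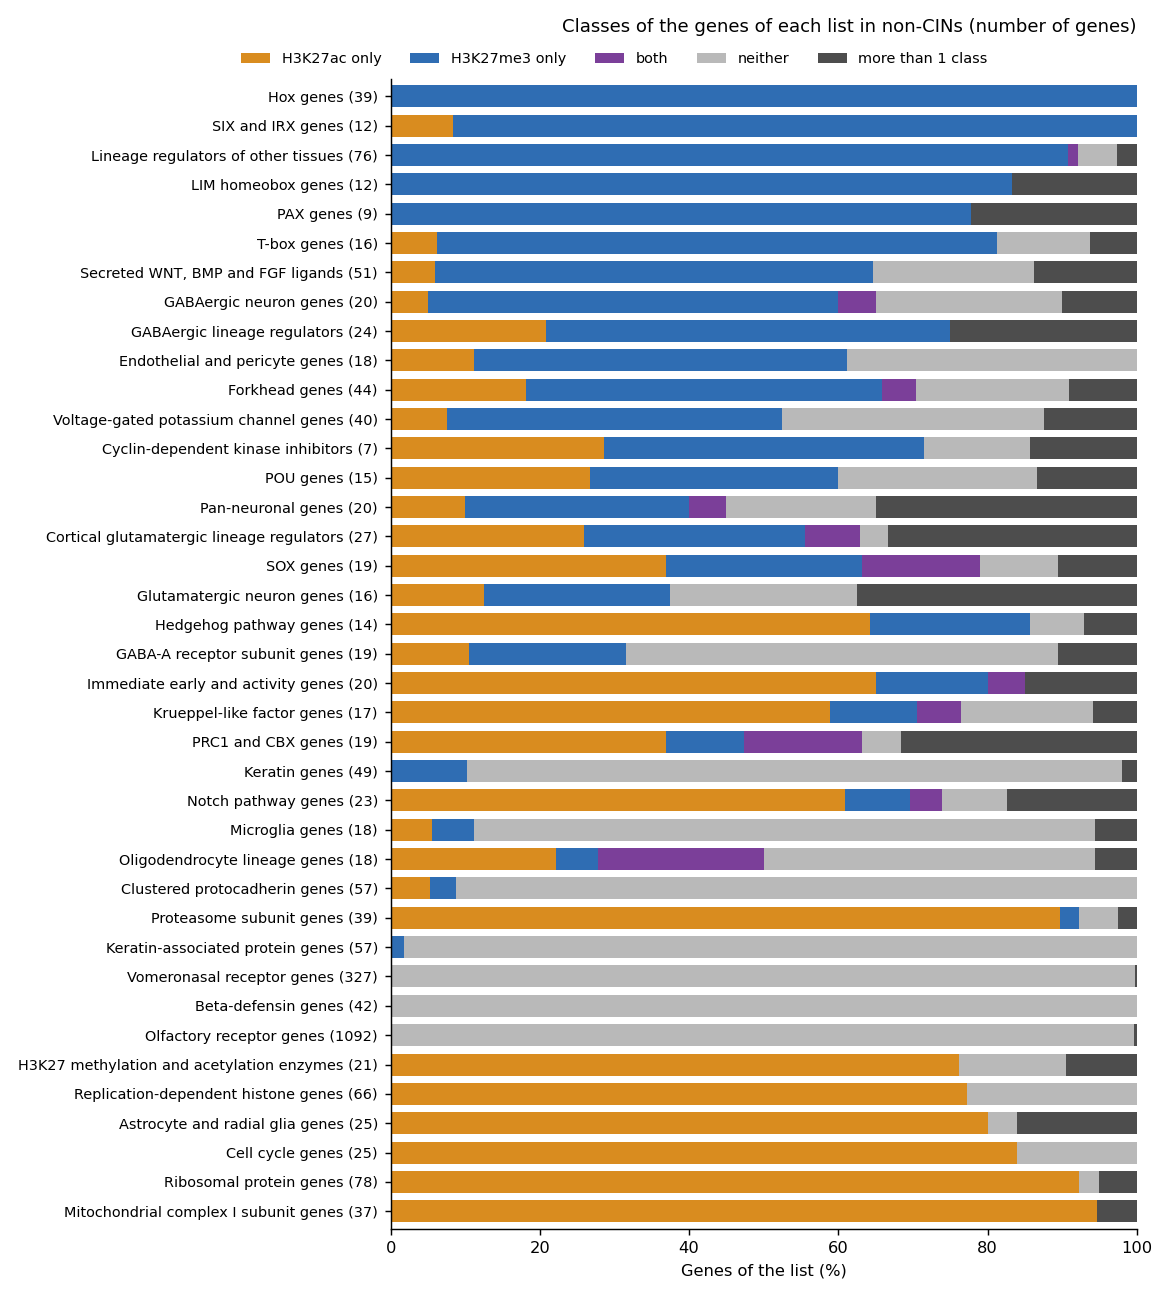
Percent of the genes of each list (horizontal axis) in each class in non-CINs, with the number of genes in brackets, ordered by the share with H3K27me3 only. Hox genes (39 of 39) lie at the top and complex I genes (35 of 37 with H3K27ac only) at the bottom.

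The enzymes that write and remove these marks were themselves mostly acetylated, with 16 of 21 genes H3K27ac only and none H3K27me3 only. *Ep300*, which encodes p300, had H3K27ac at 98.1 and 93.7, and the PRC2 subunit genes *Eed* and *Suz12* at 95.0 and 94.7 and at 87.5 and 85.1. Of 19 genes of PRC1, 7 were H3K27ac only, 2 H3K27me3 only (*Cbx7* and *Rybp*) and 3 both, among them *Cbx2* and *Cbx8*, neighbours on chromosome 11. *Cbx8* had H3K27ac at 89.4 and 85.8 and H3K27me3 at 99.4 and 99.5. *Cbx2* had H3K27ac at 62.0 and 64.8 and H3K27me3 at 97.3 and 98.5.

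The 10 genes of the class both with the highest lower percentile over the 4 lists were *Dmrta2*, *Ess2*, *Zranb2*, *Gpbp1*, *Nars*, *Serinc1*, *Olig2*, *Sfi1*, *Zpbp2* and *Cbx8*. *Dmrta2*, a patterning factor of the dorsal telencephalon, led with H3K27ac at 96.6 and 95.8 and H3K27me3 at 97.0 and 96.3. In *Olig2* and *Dmrta2* H3K27ac covered at least 893 bp of the window in both replicates. In *Ess2* it covered 155 and 169 bp and H3K27me3 109 and 410 bp. Of the 10, *Dmrta2* and *Olig2* are developmental regulators and *Cbx8* is a Polycomb gene, whereas *Nars*, a tRNA synthetase gene, and *Zranb2*, a splicing factor gene, are used in most cells. With a window of 500 bp on either side of the TSS *Ess2*, *Gpbp1*, *Nars* and *Serinc1* were H3K27ac only and *Zranb2* was in more than 1 class. Where peaks had to cover 50% of the window, 3 of the 10 were still both (*Dmrta2*, *Olig2* and *Sfi1*). Of the 151 genes 18 belonged to a list, among them *Emx1*, *Hey2*, *Klf2* and *Foxo1*, of which *Foxo1* was H3K27ac only with the window of 500 bp on either side. *Emx1*, a homeobox gene of the dorsal telencephalon, had H3K27ac at 63.1 and 7.19 and H3K27me3 at 75.7 and 91.5. At the both TSSs as a whole the peaks were weaker than in the single-mark classes, with a median H3K27ac percentile of 73.0 and 61.2, against 88.5 and 82.8 at H3K27ac-only TSSs. For H3K27me3 the medians were 73.4 and 89.9, against 90.9 and 92.8.

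Some genes had promoters in opposite classes. Of the 2130 genes with more than 1 class, 1550 had H3K27ac-only and neither TSSs and 320 H3K27me3-only and neither TSSs. At least 1 H3K27ac-only and 1 H3K27me3-only TSS were found in 131 genes. In *Myo10*, an unconventional myosin of filopodia, the 5′-most TSS (chromosome 15, position 25622525) had H3K27me3 only, at percentiles 97.97 and 98.02, and a TSS 130385 bp downstream had H3K27ac only, at 96.5 and 98.8. In *Pde4dip*, which encodes a centrosome protein, the 5′-most TSS had H3K27me3 at 96.1 and 94.0 and a TSS 120698 bp downstream H3K27ac at 93.2 and 90.9. *Stk32c*, a kinase gene, had the reverse order, with H3K27ac at the 5′-most TSS (96.5 and 94.9) and H3K27me3 24790 bp downstream (93.3 and 95.8). *Pax6*, a regulator of cortical progenitors, had H3K27me3 at its 5′-most TSS (95.2 and 94.3, with H3K27ac in replicate 1), both marks at the TSS 2960 bp downstream and H3K27ac only at 6 TSSs from 6291 to 7229 bp downstream (94.2 and 96.4). The other genes of the first 10 were *BC049715*, *Bola1*, *Pfdn4*, *Sept9*, *Tmem39a* and *Bub3*. In *Bub3* the opposed TSSs were 387 bp apart, so their windows overlapped.

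The class neither was led in number by chemosensory receptor genes, which are silent outside sensory neurons. Of 1092 olfactory receptor genes 1087 were neither, and of 327 vomeronasal receptor genes 326, against 42.7% of all genes. All 42 beta-defensin genes and 56 of 57 keratin-associated protein genes were neither. Among 49 keratin genes 43 were neither and 5 H3K27me3 only, among them *Krt8*, *Krt18* and *Krt19*, keratins of simple epithelia. Of 57 clustered protocadherin genes, which give neurons single-cell identity, 52 were neither, and the C-type genes *Pcdhgc3*, *Pcdhgc4* and *Pcdhgc5* were H3K27ac only. In replicate 1 alone 16 of the 57 were H3K27me3 only, and in replicate 2 alone 2 were. The longest run of neither genes held 236 genes on chromosome 2 (chr2:85136225-90403897), most of them olfactory receptors, and the next 177 genes of chromosome Y. Copies within such families are near-identical in part, and the authors filtered reads on mapping quality. How far a lack of peaks there comes from mapping was not tested. Absence of a call was again the weaker call. *Syn1*, *Gap43* and *Mbp* had H3K27ac in replicate 1 alone, and 11.6% of all neither TSSs had H3K27ac and 6.25% H3K27me3 in 1 replicate.

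Gene structure differed between the classes as well. Median gene length was 22.0 kb for H3K27ac only (quartiles 9.45–48.9), 17.9 kb for H3K27me3 only (6.10–53.7), 26.6 kb for both (10.6–81.1) and 10.01 kb for neither (4.38–27.1). Genes with more than 1 class, which must have more than 1 TSS, had a median length of 52.2 kb (21.5–124). A single TSS was annotated for 50.4% of H3K27ac-only, 61.8% of H3K27me3-only, 64.2% of both and 55.7% of neither genes, against 48.7% of all genes. A gene with 1 TSS cannot fall in more than 1 class, so the rule itself raises these shares. Genes of the X chromosome were 4.34% of all genes, 2.87% of H3K27ac only, 1.59% of H3K27me3 only and 6.45% of neither.

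The CIN lists, which did not enter the rule, gave most non-CIN promoters the same class. Of the H3K27ac-only TSSs 95.8% were H3K27ac only in CINs, of H3K27me3 only 83.2%, of both 64.6% and of neither 93.2%. Within replicate 1 alone these shares were 95.1%, 75.9%, 49.0% and 92.6%, and within replicate 2 alone 95.3%, 84.6%, 64.6% and 93.2%. Of all both TSSs 24.5% were H3K27ac only in CINs and 7.71% H3K27me3 only. For H3K27me3 the population lists with the same replicate number shared more promoters (69.4% and 76.4% of the TSSs in either list) than the non-CIN replicates did (67.6%). These shares thus hold the difference between the replicate experiments as well as that between the populations.

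The class counts of the populations were compared on single replicates, where the class both was found at 1162 and 951 TSSs in non-CINs and at 1209 and 1203 in CINs (exact two-sided permutation test, *p* = 0.333). H3K27me3 only was found at 3255 and 4204 against 2934 and 4091 (exact permutation *p* = 0.667), and H3K27ac only at 20817 and 19108 against 21265 and 19276 (exact permutation *p* = 0.667). For neither the counts were 16204 and 17175 against 16030 and 16868 (exact permutation *p* = 0.667). With 2 lists on each side 0.333 is the smallest *p* this test can give, so it cannot pass 0.05. Within replicate numbers, non-CINs minus CINs was −47 in replicate 1 and −252 in replicate 2 for both, 321 and 113 for H3K27me3 only, −448 and −168 for H3K27ac only, and 174 and 307 for neither. Each class thus had 1 sign in both pairs, and the exact paired permutation *p* was 0.50 for each, the smallest that 2 pairs can give.

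Opposite classes in the populations were rare at the level of genes. There were 20 genes with H3K27ac only in non-CINs and H3K27me3 only in CINs, and 35 with the reverse. Where each replicate alone had to give the same class in both populations, 3 of the 20 and 4 of the 35 were left, so most of these calls rest on a mark that was called in 1 replicate of a population classed as lacking it. Among the first, *Smad6*, an inhibitor of BMP signalling, had H3K27ac at percentiles 65.5 and 64.9 in non-CINs and H3K27me3 at 92.8 and 94.7 in CINs, with no other promoter peak. *Dkk2*, a WNT inhibitor, had H3K27ac at 43.9 and 41.1 and in CINs H3K27me3 at 95.1 and 91.3, with H3K27me3 in non-CIN replicate 1 too (54.1). *Bmp7*, a ligand gene, was among the 20, with weak H3K27ac in non-CINs (16.5 and 2.65) and H3K27me3 in CINs (92.2 and 92.6). *Ppara*, *Pde3a*, *Hspa1b*, *Samd5*, *Fam43a*, *Erbb2*, *Fkbp10* and *Gm5089* completed the first 10 by rank. In the reverse direction *Kcnh8*, a potassium channel gene, had H3K27me3 at 95.4 and 94.2 in non-CINs and H3K27ac at 94.0 and 82.0 in CINs, with weak H3K27ac in non-CIN replicate 1 (21.7) and H3K27me3 in CIN replicate 2 (95.7). *Bcl11b*, a regulator of deep layer PNs and of interneurons, was among the 35, with H3K27me3 at 89.7 and 82.9 in non-CINs and H3K27ac at 75.4 and 28.4 in CINs, where replicate 2 had H3K27me3 too (71.9). *Dpysl5*, *Mfsd6*, *Fam155a*, *Adarb2*, *Ccsap*, *Npas4*, *Map1b*, *Ksr2* and *Galnt14* followed *Kcnh8* in rank.

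Several GABAergic genes had H3K27me3 in CINs as well. *Dlx1*, *Dlx2*, *Gad1*, *Gad2* and *Slc32a1* were H3K27me3 only in non-CINs and both in CINs. *Dlx2* had H3K27ac in CINs at 88.1 and 67.3, beside H3K27me3 at 93.8 and 97.7. *Gad2* had H3K27ac in CINs at 91.7 and 82.5, beside H3K27me3 at 96.2 and 97.3. *Lhx6*, *Npy* and *Sst* were H3K27me3 only in both populations, with no H3K27ac promoter peak in any list. The remaining genes that the study names for these data were H3K27ac only in non-CINs (*Aldh1l1*, *Id4*, *Arl4d*, *Maf*, *Tubb2a*, *Tubb2b*, *Rbfox2*, *Camk2d*), in more than 1 class (*Nr2f1*, *Dlgap1*, *Nlgn1*, *Nlgn2*) or neither (*Syn1*, *Htr3a*, *Nlgn3*, *Ctnnb1*). *Syn1* was H3K27ac only in replicate 1 alone and *Nlgn3* in replicate 2 alone, as was *Nlgn2*, and *Ctnnb1* was in more than 1 class once the window reached 500 bp downstream. *Htr3a*, a serotonin receptor gene of interneurons, had no promoter peak in non-CINs and H3K27ac in CINs at 24.1 and 14.8.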

How the data were processed

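Alignment to mm10 and peak calling were the authors' work (BWA 0.7.15, SAMtools and MACS2 2.2.7 in the submitters' processing notes), with broad peaks called per replicate and the paired input as control. Each deposited peak has a score, its fold enrichment (a ratio over input), a −log10 *p* and a −log10 *q*. Reads were not used here, so depth is unknown and no interval is given. Fold enrichment was ranked within its own list only. TSSs came from protein-coding transcripts of the GENCODE vM21 basic set, without the mitochondrial genome. CpG content was read from GRCm38.p6 in the same window. The 39 gene lists, the classes and the rule for the genes named (10 by rank per class and switch, up to 4 per list and class, and those the study names) were chosen with earlier results of these data known. Other members of a list, *Bmp7*, *Bcl11b* and *Cbx2* were named after their values were seen, as were distances to the nearest peak. No test was run on the classes, which the rule makes, and lists are set beside all genes with no test. Only class counts of CINs and non-CINs were tested (exact permutation). The pairing by number comes from the experiments with matched inputs. Deviations of the marks with the same number had a correlation of -0.04 across TSSs. Calculations used Python 3.11.15, NumPy 2.4.6 and SciPy 1.17.1, were tested on simulated data and were checked against bedtools 2.31.1. Alternatives were other windows, thresholds and replicate rules. The input samples were not used here. Some genes of the lists are counted but not reported here by name.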

Additional observations from a re-analysis of the deposited data

Results flagged for a closer look

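In 5 of the 21851 genes classed every non-CIN list had H3K27ac and no H3K27me3 over a promoter, and every CIN list the opposite. In 5 other genes every list was the other way round. Both sets were picked out because all samples of one population went against all samples of the other, and the difference was not tested for any gene. The first were *BC067074*, *Nid2*, *Rreb1*, *Samd5* and *Smad6*. *Nid2*, a basement membrane protein gene, had H3K27ac at percentiles 40.3 and 22.3 in non-CINs and H3K27me3 at 89.6 and 91.6 in CINs. Its H3K27ac peaks covered only 52 and 29 bp of the window. Those of *Samd5* covered 467 and 36 bp, and those of *Smad6* 711 and 615 bp. Of the second set, the non-CIN H3K27me3 peaks of *March11* covered 33 and 359 bp and those of *Chga* 689 and 615 bp. The second were *Chga*, *Dlgap3*, *Fam155a*, *March11* and *March9*. *Chga*, the chromogranin A gene of secretory vesicles, had H3K27me3 at 50.01 and 5.83 in non-CINs and H3K27ac at 71.0 and 63.3 in CINs. *Dlgap3*, a postsynaptic scaffold gene, had H3K27me3 at 95.4 and 66.1 and H3K27ac at 54.7 and 37.1. In *BC067074*, *Rreb1* and *Dlgap3* the peaks of a mark lay over some of several TSSs.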

How the results depend on the processing

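The class both depended most on the settings. From 441 TSSs and 151 genes it moved to 1236 and 496 with a window of 2 kb upstream to 500 bp downstream, to 21 and 6 where peaks had to cover 50% of the window, to 224 and 85 at a −log10 *q* of at least 4, to 1859 and 724 with a peak in either replicate, and to 273 and 94 with the 30000 strongest peaks of each list. With the 5′-most TSS of each gene it held 236. A single replicate gave 951 to 1162 TSSs and 358 to 435 genes. Coverage of 50% also moved H3K27ac only to 11034 TSSs and 4361 genes and neither to 28073 and 14240. The 5′-most TSS alone left 9625 H3K27ac-only, 1978 H3K27me3-only and 10012 neither TSSs, since it tests fewer TSSs. Merging peaks and using the stretch shared by both replicates moved no class by over 1.5 times. In the paired analysis with the replicate block, a TSS was kept where both replicate numbers gave it the same class. This left 18584, 2967, 441 and 15282 TSSs in the order of the report, all within 1.5 times. The 441 could not change, since the class both already needs both marks in both replicates. Of 51 values compared under the block 8 moved, among them high-CpG promoters at 2.54% of neither TSSs, and neither genes at 5 of the oligodendrocyte and 34 of the protocadherin list. Genes of opposite class in the populations went from 20 and 35 to 3 and 4 under the block, to 5 and 6 at 50% coverage and to 11 and 20 at the higher *q* threshold. Replicate 1 alone gave 27 and 37, of which 10 and 17 were the same genes, and replicate 2 alone 19 and 23, with 8 and 8 the same. With a sequence window of 500 bp on either side of the TSS high-CpG shares moved from 53.1, 32.8, 48.3 and 6.20% to 76.0, 54.7, 71.9 and 11.6% in the order of the report, by over 1.5 times for H3K27me3 only and neither, and the 4 medians moved by less than 1.5 times. The block left the CIN differences as they were, with exact paired *p* = 0.50, the smallest it can give. Of the 39 lists, 29 kept their count in the leading class within 1.5 times at 50% coverage, and 36 or more did under each other setting. Of the 375 genes that the naming rule takes, 331 kept their class with a window of 500 bp on either side, 340 with 2 kb upstream to 500 bp downstream, 284 at 50% coverage, 343 at the higher *q* threshold, 344 in replicate 2 alone and 336 in replicate 1 alone. Of the 26 of these in the class both, 15 kept it with 500 bp on either side, 3 at 50% coverage and 19 at the higher *q* threshold. All 26 keep it in each replicate alone by definition, since both marks had to be called in both replicates. At the higher *q* threshold *Emx1*, *Tubb3* and *Sox10* were H3K27me3 only, *Prrx1* was H3K27ac only, and *Gria3*, *Sox8*, *Cspg4*, *Gpr17*, *Tyrobp*, *Wnt7a*, *Bmp7*, *Cdkn1c*, *Npas4*, *Map1b*, *Ksr2* and *Galnt14* were neither. The depth of the libraries was not available to weigh single peaks.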
